A study of Mus musculus with 54 samples.

Results

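Genomic imprinting leaves a gene active on the chromosome from one parent and silent on the other. Most imprinted genes lie in clusters under a shared control region. Examined here, each locus apart, were 10 imprinted genes: Slc38a4, Plagl1, Impact, Rasgrf1, Nnat, Gnas, Peg10, Sgce, Mest and Zrsr1. Other imprinted genes lie near some of them, such as Ppp1r9a near Peg10 and Sgce, and Klf14 near Mest. The 10 genes were chosen by name and position, with earlier results of these data known. They were followed in the 50 kb windows (mm10) that overlap their gene bodies. Of the 10 genes, 9 had a window in the table, and these covered 16 of its 46268 windows. Replication timing is the order in which chromosome domains are copied in S phase. Early copying usually goes with open, transcribed chromatin, and at many imprinted clusters the parental chromosomes are known to be copied at different times.

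The assay was Repli-Seq on F1 hybrid mouse cells, and 54 libraries (1 early and 1 late S phase library a profile) gave 27 profiles. Embryonic stem cells (ESCs) of 129 and Cas came from F121 (1 profile), F121-6 and F121-9 (4 profiles each, of which 2 on MEF feeders), F123 (2 profiles) and Cas129 (2 profiles), all others in 2i medium without feeders. Neural precursor cells (NPCs), collected at day 11, derived from F121-9 (1 profile) and from Cas129 (2 profiles). For embryonic fibroblasts (MEFs) there were 4 embryos, each profiled in 2 replicates. The cross label puts 129 first for F123 and the F121 lines, and Cas first for the embryos and for Cas129. The strain named first was read here as the mother. V6.5 ESCs (1 profile, C57B6 named before 129) and 1 extraembryonic endoderm (XEN) line (2 profiles, C57B6 named before Cas) had other parents and are given as values with no test. F123, V6.5 and embryos 3 and 4 were labelled male and the others female.

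Each value is the log ratio of early to late signal of 1 allele, read as log2, so that a higher value means earlier copying. An allelic difference is 129 minus Cas, and timing is the mean of both alleles. Lines and embryos were the units (5 ESC lines, 2 NPC lines, 4 embryos), and nothing in the labels says that the 2 profiles of a line came from separate animals. A gene was called with limma at an adjusted p below 0.05 and a size of at least 0.5 for allelic differences, or at least 1 for timing, over 30127 autosomal genes. Lists of timing markers were earliest in their own cell type for 4 of 6 ESC, 3 of 6 NPC, 5 of 6 MEF and 3 of 5 XEN genes. The X chromosome did not match the sex label in 2 embryos: the 129 X of embryo 1, labelled female, was flat (SD over windows 0.28), and that of embryo 3, labelled male, was not (SD 1.33). In V6.5, labelled male, neither X was flat (129, SD 2.27; C57B6, SD 2.27), whereas the Cas X of F123, also labelled male, was (SD 0.18). The alleles of V6.5 had nearly the same values in most genes (median size of the difference 0.02), so how far they were separated there is unknown, and this limits every V6.5 value given. Results on MEFs are therefore also given without these embryos where this changed a call. MEF and XEN columns had autosomal means near -0.14 and ESC and NPC columns near -0.60, so timing differences between these sets include that offset. Read depth is unknown.

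Slc38a4 and Plagl1 are shown first by sequence, since they were the members whose alleles differed in ESCs. Below are the 250 bases before the most upstream start of Slc38a4 (chr15:97055957-97056206, minus strand) and before the start of Plagl1 (chr10:13090582-13090831, plus strand), from RefSeq on GRCm38.p6, 5′ to 3′, with CpG dinucleotides in capitals.
Slc38a4: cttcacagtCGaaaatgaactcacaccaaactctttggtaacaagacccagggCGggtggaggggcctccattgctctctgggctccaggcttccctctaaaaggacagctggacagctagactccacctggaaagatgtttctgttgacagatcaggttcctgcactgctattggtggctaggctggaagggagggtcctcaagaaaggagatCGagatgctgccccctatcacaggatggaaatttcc
Plagl1: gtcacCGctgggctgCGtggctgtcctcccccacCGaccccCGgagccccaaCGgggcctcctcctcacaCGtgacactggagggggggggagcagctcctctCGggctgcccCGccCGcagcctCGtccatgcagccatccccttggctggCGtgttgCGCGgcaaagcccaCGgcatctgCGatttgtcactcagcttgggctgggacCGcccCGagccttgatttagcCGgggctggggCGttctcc
The Slc38a4 stretch holds 3 CpG dinucleotides, and 37.8% of 32851 promoters of the same length hold as few or fewer. The Plagl1 stretch holds 19, and 19.7% of promoters hold as many or more. TGCCGC, the hexamer bound by the imprint-maintaining factor ZFP57, was searched on both strands: it was found in the Plagl1 stretch and not in that of Slc38a4, and 8.68% of all promoters hold it. Mest stretches from 30737800 and 30737803 also held it, and the one from 30733256 did not. Other Slc38a4 stretches (97031214 to 97031463 and 97020360 to 97020609) held 5 CpG each and no TGCCGC. Promoter sequences were matched for 7 of the 10 genes, and not for Impact, Peg10 and Sgce.

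Slc38a4 encodes an amino acid transporter and is expressed from the paternal allele in several tissues. It lies on chromosome 15 (96994816 to 97055956) and covers 3 windows. In ESCs its Cas allele was copied early, with line means of 1.94 in F121, 2.19 in F121-6, 2.33 in F121-9, 1.44 in F123 and 2.00 in Cas129. The 129 allele lay at 0.42, 0.80, 1.04, -0.19 and 0.92 in the same lines. The alleles did not overlap: the lowest Cas value was above the highest 129 value. The allelic difference was -1.38 ± 0.21 (SD, n = 5), the largest in size among the 9 measured genes in ESCs, and was negative in 5 of 5 lines (limma, SE 0.09, adjusted p = 3.2e-08).

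The difference kept its sign when the cross was turned. It was -1.51, -1.39, -1.29 and -1.64 in the 4 lines with 129 named first and -1.08 in Cas129. In all 13 ESC profiles the Cas allele was the earlier one, whether Cas was named second (11 profiles) or first (2 profiles). In NPCs the alleles kept this order, at -1.09 in both F121-9 and Cas129 (adjusted p = 0.001), although the 2 Cas129 profiles were -0.78 and -1.41. MEFs differed from this. There the 129 allele lay at 2.44, 2.39, 2.38 and 2.53 in embryos 1 to 4 and the Cas allele at 2.19, 2.13, 2.03 and 2.35, a difference of 0.26 ± 0.07 (SD, n = 4) that was not called (adjusted p = 0.084). The change of the allelic difference from ESCs to MEFs was 1.64 with an SE of 0.13 (limma, adjusted p = 9.5e-07), and no MEF embryo lay within the range of the ESC lines.

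Single windows show how far the difference reached. In ESCs it covered 900 kb of chromosome 15, from 96350001 to 97250000, with a mean of -0.92 over 18 windows. Its largest window, -1.42, was the one that holds the start of Slc38a4 (97050001 to 97100000). In NPCs the stretch was 450 kb long. Slc38a2, the neighbouring amino acid transporter gene, was lower on 129 in ESCs as well (-0.78, SE 0.15, adjusted p = 0.00097) but stood at -0.06 in NPCs and 0.10 in MEFs, where it was not called. In V6.5 Slc38a4 stood at 0.20 (129) and 0.19 (C57B6), a gap that 58.8% of all genes reached or passed in that line. In XEN both were early, at 2.44 (C57B6) and 2.57 (Cas).

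**Figure D1:**
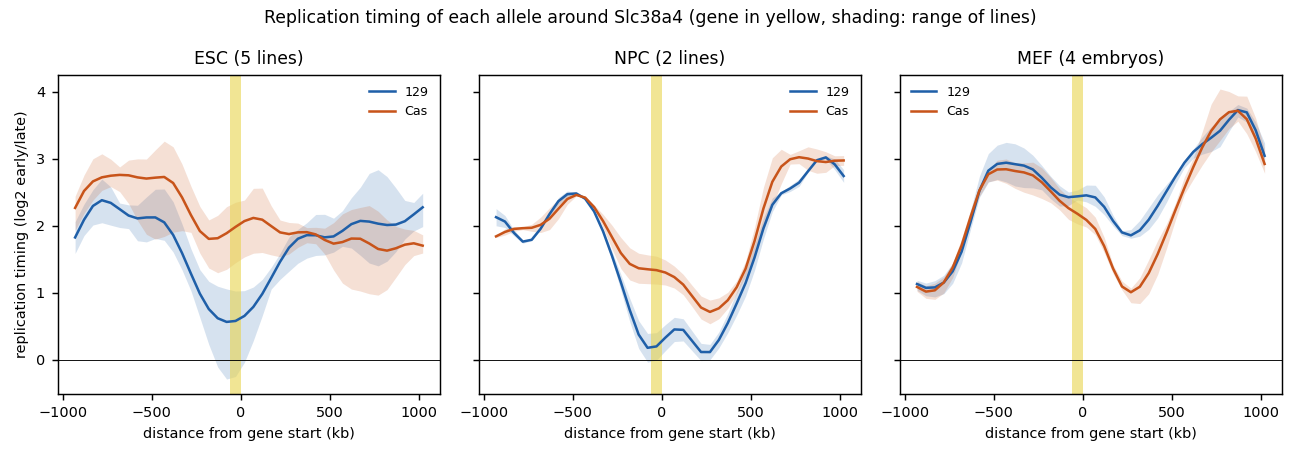
Timing of the 129 and Cas alleles (log2 of early over late, vertical axis) against distance from the start of Slc38a4 in kb along the chromosome, as means of lines with the range between lines shaded and the gene body in yellow. The 129 allele dips at the gene in ESCs and NPCs, where the differences were -1.38 and -1.09, while the MEF alleles run close together at the gene.

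Plagl1 encodes a zinc finger transcription factor and is expressed from the paternal allele. It lies on chromosome 10 (13090832 to 13131694). In ESCs the 129 allele was earlier in every line, by 0.74 in F121, 0.48 in F121-6, 0.69 in F121-9, 0.32 in F123 and 0.67 in Cas129, as means over media. The F121-6 value came mostly from feeders: its profiles were -0.24 and 0.40 in 2i (mean 0.08) and 1.03 and 0.74 on feeders. In F121-9 the 2i mean was 0.46. The mean was 0.58 ± 0.17 (SD, n = 5; limma, adjusted p = 0.00019). With Slc38a4 this made 2 of 9 members called, against 19.7% of all genes. With the 2i profiles alone the Plagl1 value was 0.45, below the minimum size. At 0.25 in NPCs and 0.34 in MEFs (adjusted p = 0.037) it did not reach that size, and the changes from ESCs to NPCs and to MEFs were not called (-0.33, adjusted p = 0.26, and -0.24, adjusted p = 0.24).

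The called ESC windows around Plagl1 ran over 1500 kb (11800001 to 13300000), with a mean of 0.69 and the largest value, 0.89, at 12450001, outside the gene. Plagl1 was also the 1 member of 9 whose timing was called between culture conditions, against 4.54% of all genes. In F121-6 its timing was 2.96 and 3.21 in 2i and 1.74 and 1.69 on feeders. In F121-9 it was 1.77 and 1.74 in 2i and 0.90 and 0.81 on feeders. The feeder profiles lay below the 2i profiles of their own line in both lines, and timing fell by 1.14 on the log2 scale (limma, SE 0.19, adjusted p = 0.0025). With only 1 of the 2 replicates of each line and medium the call was lost (-1.23 without replicate 1, -1.05 without replicate 2), and in F121-9 alone the value was -0.90. Phactr2, the gene beside Plagl1, fell by 2.05 (adjusted p = 0.0032). Over all genes 361 were called earlier and 1006 later on feeders, and 589 and 774 after each profile was centred on its median. The allelic difference was called between feeders and 2i for 0 members and for 0% of all genes with limma, while 3335 genes had an unadjusted p below 0.05. Member estimates were all positive, from 0.09 for Impact to 0.63 for Plagl1 (95% interval 0.085 to 1.185, limma, adjusted p = 0.38). Their median was 0.39, against 0.03 over all genes, so the absence of calls does not show that medium left the difference unchanged.

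Slc38a4 and Plagl1 were also the 2 of 9 members with a called strain component in ESCs (20.3% of all genes), which is the part of the difference that follows 129 and Cas whichever is named first. It was estimated from 2i profiles, with equal weight for the mean of the 4 lines with 129 first and for Cas129 alone. For Slc38a4 it was -1.29 (SE 0.10, adjusted p = 6.3e-06), and for Plagl1 0.53 (SE 0.14, adjusted p = 0.013). The Plagl1 call was lost without F121 (0.48), with median centring (0.49) and with the lines labelled female alone (0.55, adjusted p = 0.056). It was also lost in a fit to single profiles with their replicate number as a term (0.45). In 2i the Plagl1 difference was 0.74 in F121, 0.08 in F121-6, 0.46 in F121-9, 0.32 in F123 and 0.67 in Cas129. The size of the Plagl1 strain component thus leans on Cas129.

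The parental component is the part that turns its sign with the cross, as maternal minus paternal. In ESCs no member was called, and 0% of all genes were (limma; 1645 genes had an unadjusted p below 0.05). Estimates ranged from -0.30 for Zrsr1 (95% interval -0.65 to 0.05) to 0.06 for Peg10 (-0.24 to 0.36). Mest stood at -0.26 (-0.57 to 0.04), Impact at -0.23 (-0.60 to 0.14) and Slc38a4 at -0.22 (-0.45 to 0.01). The intervals of all 9 members include 0, and those of Mest, Impact and Zrsr1 also include sizes above 0.5, which would have passed the minimum. Cas129 is the 1 ESC line with Cas first, so a feature of that line cannot be told apart from the cross. In NPCs, with 1 line on each side, the parental component was called for no member and for 0.00996% of all genes (Gm20362, Prb1 and Vmn1r70, named after their values were seen). The strain component in NPCs was called for Slc38a4 alone (-1.09, adjusted p = 0.0022; 2.9% of all genes), as was the allelic difference in NPCs (3.73% of all genes). With 1 NPC line for each cross, the spread behind the NPC components came from ESC lines and MEF embryos alone, and the 2 Cas129 NPC profiles of Slc38a4 lay at -0.78 and -1.41.

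**Figure D2:**
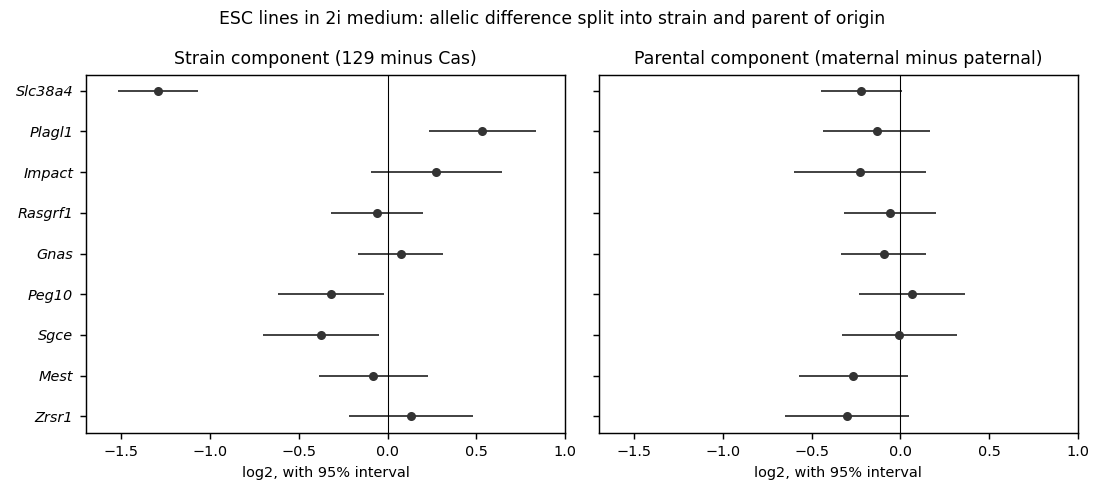
Estimates with 95% intervals (log2, horizontal axes) of the strain component, left, and the parental component, right, for 9 genes in ESC lines grown in 2i. Slc38a4 at -1.29 and Plagl1 at 0.53 stand away from 0 on the left, and every interval on the right includes 0.

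Impact encodes a regulator of the amino acid sensing kinase GCN2 and is expressed from the paternal allele. It lies on chromosome 18 (12954690 to 12992950), in 1 window. In MEFs its 129 allele lay at 1.49, 1.51, 1.44 and 1.43 in embryos 1 to 4, and its Cas allele at 0.09, 0.99, 0.23 and 0.44. The 129 values lay within 0.10 of each other, the Cas values were spread, and the groups did not overlap. The allelic difference was 1.03 ± 0.38 (SD, n = 4; limma, SE 0.15, adjusted p = 0.00025), positive in 8 of 8 profiles and smallest in embryo 2 (0.52). Impact was the 1 of 9 members called in MEFs, against 9.71% of all genes. Without embryos 1 and 3 it stood at 0.76 and was no longer called.

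In ESCs the alleles of Impact were closer, with differences of 0.39 in F121, 0.14 in F121-6, 0.07 in F121-9, -0.33 in F123 and 0.50 in Cas129 (adjusted p = 0.41). The change from ESCs to MEFs was 0.87 (SE 0.20, adjusted p = 0.0044). This change and that of Slc38a4 were the 2 of 9 called, against 22.2% of all genes, and from ESCs to NPCs 0 of 9 were called, against 12.3% (limma; 7514 genes had an unadjusted p below 0.05). The Impact change was 0.60 without embryos 1 and 3, 0.68 with lines and embryos labelled female and 0.53 against Cas129 ESCs alone, the ESC line with the cross of the MEFs, and it was not called in these 3 settings.

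All 4 embryos carry the same cross, so strain and parent cannot be told apart in MEFs. Set out by the order of the cross label, the allele of the strain named second was the earlier one at Impact in 8 of 8 MEF profiles (129), in both Cas129 ESC profiles (129), in 3 of 3 NPC profiles, in the V6.5 profile (129, at 1.85 against 0.69 for C57B6) and in both XEN profiles (Cas, at 0.85 against 0.24 for C57B6). In the 11 ESC profiles with 129 first it was the earlier one in 5. This count was made after the values were seen, and profiles of 1 line or embryo are repeats. The F121-9 NPC profile differed by only 0.04. MEF and XEN counts for the other members are given with Mest. The V6.5 difference of 1.17 was the 1 of 9 members of at least 0.5 in that line, where 2.11% of all genes reached that size and the median size over genes was 0.02. The called MEF windows ran over 700 kb of chromosome 18 (12650001 to 13350000) and included Osbpl1a, a lipid transfer gene beside Impact, at 1.03 (adjusted p = 0.00015).

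**Figure D3:**
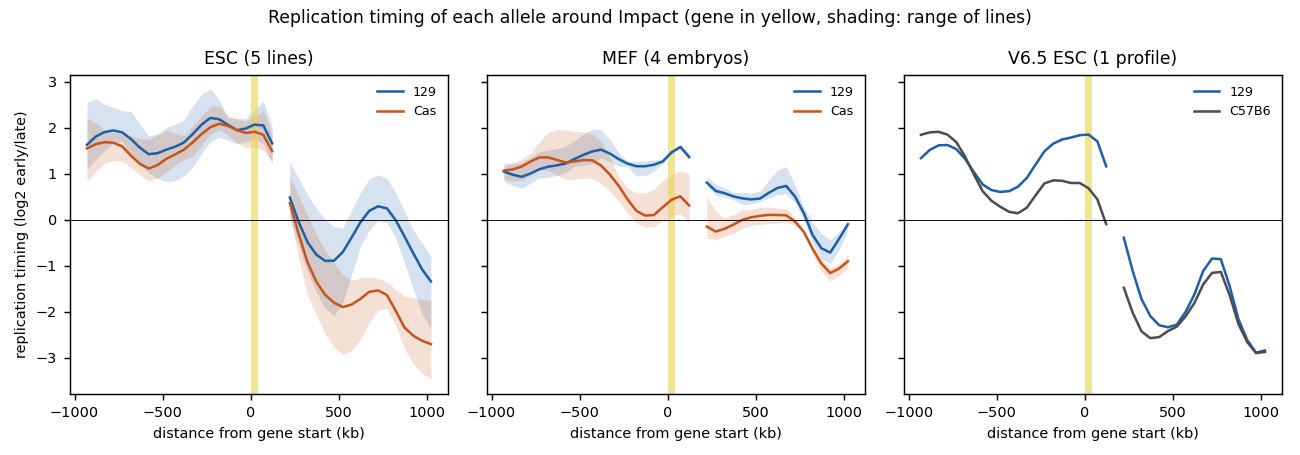
Timing of each allele (log2 of early over late, vertical axis) against distance from the start of Impact in kb, with the gene body in yellow, for ESCs, MEFs and V6.5. Lines are means with the range between lines or embryos shaded; gaps are positions with no window. At the gene the MEF alleles stand 1.03 apart and the V6.5 alleles 1.17 apart, and the ESC alleles 0.16 apart.

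Peg10, a gene derived from a retrotransposon and needed for placenta formation, and Sgce, which encodes a sarcoglycan, start head to head on chromosome 6 (4747306 to 4760517 and 4674350 to 4747204). Both are expressed from the paternal allele. They share the window 4700001 to 4750000, so their values are not independent. The largest allelic differences of any member were those of this pair in XEN, a line of the embryo's extraembryonic endoderm lineage. For Peg10 the C57B6 allele was at 1.38 and the Cas allele at -1.19 as means of 2 profiles. The difference was 2.75 and 2.38 in these profiles, and for Sgce 2.47 and 2.44. Of all genes, 0.279% had an XEN difference as large as that of Peg10. In XEN, 6 of 9 members differed by at least 0.5, against 29% of all genes (1 line, no test). The other 4 were Mest (-0.77), Impact (-0.61), Plagl1 (-0.55) and Zrsr1 (-0.50), each with Cas earlier on average, although the 2 profiles of Zrsr1 were 0.02 and -1.03. The Cas X chromosome of XEN was flatter (SD over windows 0.90) than its C57B6 X (2.33), and its part in these values was not tested.

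The stretch around Peg10 and Sgce in XEN was 1400 kb long (4050001 to 5450000), with a mean difference of 2.11 over 28 windows, and took in the neighbour Casd1 (2.48). It also held the imprinted genes Ppp1r9a (2.44), Pon3 (1.59), Pon2 (1.39) and Asb4 (0.69). Calcr, an imprinted gene outside the stretch, stood at -2.13. C57B6 is the strain named first in XEN, and with 1 cross strain and parent cannot be told apart. The other hybrids did not show a difference of this size. In ESCs Peg10 stood at -0.62 in F121, 0.15 in F121-6, -0.16 in F121-9, 0.05 in F123 and -0.38 in Cas129, with a mean of -0.19 (95% interval -0.43 to 0.04). With 2i profiles alone F121-6 stood at -0.10 and F121-9 at -0.35. In MEFs it was -0.14, -0.16, -0.33 and -0.51 in embryos 1 to 4, with a mean of -0.29 (-0.55 to -0.02, adjusted p = 0.13). Repeat ESC profiles of a line and medium differed by up to 0.93 at Peg10 and 1.25 at Sgce.

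**Figure D4:**
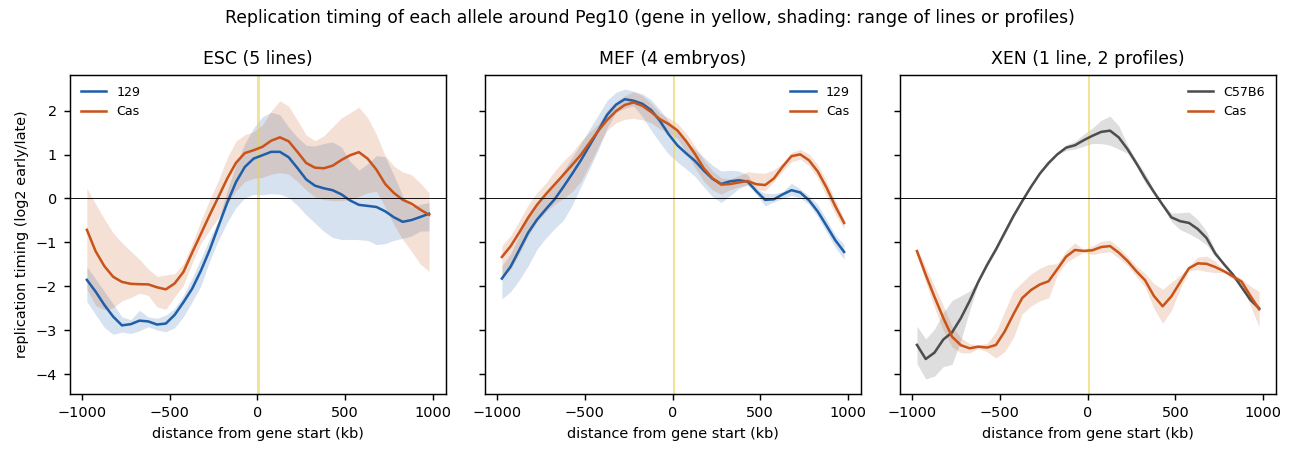
Timing of each allele (log2 of early over late, vertical axis) against distance from the start of Peg10 in kb, for ESCs, MEFs and XEN, with the range between lines or profiles shaded. At the gene the XEN alleles stand at 1.38 (C57B6) and -1.19 (Cas), and the 129 and Cas alleles differ by -0.19 in ESCs and -0.29 in MEFs.

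Gnas encodes the stimulatory G protein alpha subunit and overlapping transcripts with maternal, paternal or biallelic expression. It lies on chromosome 2 (174284320 to 174346744). In MEFs the 129 allele was earlier in 4 of 4 embryos, by 0.32, 0.44, 0.36 and 0.49, a mean of 0.40 (adjusted p = 0.016) below the minimum size. In ESCs the lines ran from -0.21 in F123 to 0.43 in F121-6, on both sides of 0, and F121-6 stood at 0.21 in 2i alone. Rasgrf1, a Ras exchange factor gene on chromosome 9 (89909508 to 90026979), ran from -0.26 to 0.37 in ESC lines as means over media. Its highest line, F121-6, stood at -0.04 in 2i alone, where the lines ran from -0.26 to 0.00. In MEF embryos 1 to 4 Rasgrf1 stood at -0.33, -0.11, -0.0007 and -0.50, so that embryo 3 showed no direction. Mest, which encodes a hydrolase-like protein on chromosome 6 (30733506 to 30748466), was negative in the 4 ESC lines with 129 first, from -0.50 to -0.10, and positive in Cas129 (0.18). The allele of the strain named second was the earlier one at Mest in 10 of 11 ESC profiles with 129 first, in 2 of 2 of Cas129, in 2 of 2 of Cas129 NPCs and in 2 of 2 of XEN. It was not in the NPC profile with 129 first, and in MEFs it was in 4 of 8 profiles, a count looked at after the values were seen. In MEFs the same count was 8 of 8 at Slc38a4, Plagl1 and Gnas, and 7 of 8 at Zrsr1. It was 2 of 8 at Sgce, 1 of 8 at Rasgrf1 and 0 of 8 at Peg10. In XEN it was 2 of 2 at Plagl1, 1 of 2 at Slc38a4, Gnas and Zrsr1, and 0 of 2 at Peg10, Sgce and Rasgrf1. Repeat profiles are not independent. Zrsr1, a splicing factor retrogene within an intron of Commd1 on chromosome 11 (22972005 to 22976496), ran from -0.31 to 0.43 in ESC lines and from -0.06 to 0.54 in MEF embryos. In 2i alone its F121-6 value was -0.61. None of Gnas, Rasgrf1, Mest and Zrsr1 was called for an allelic difference in ESCs, NPCs or MEFs.

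**Figure D5:**
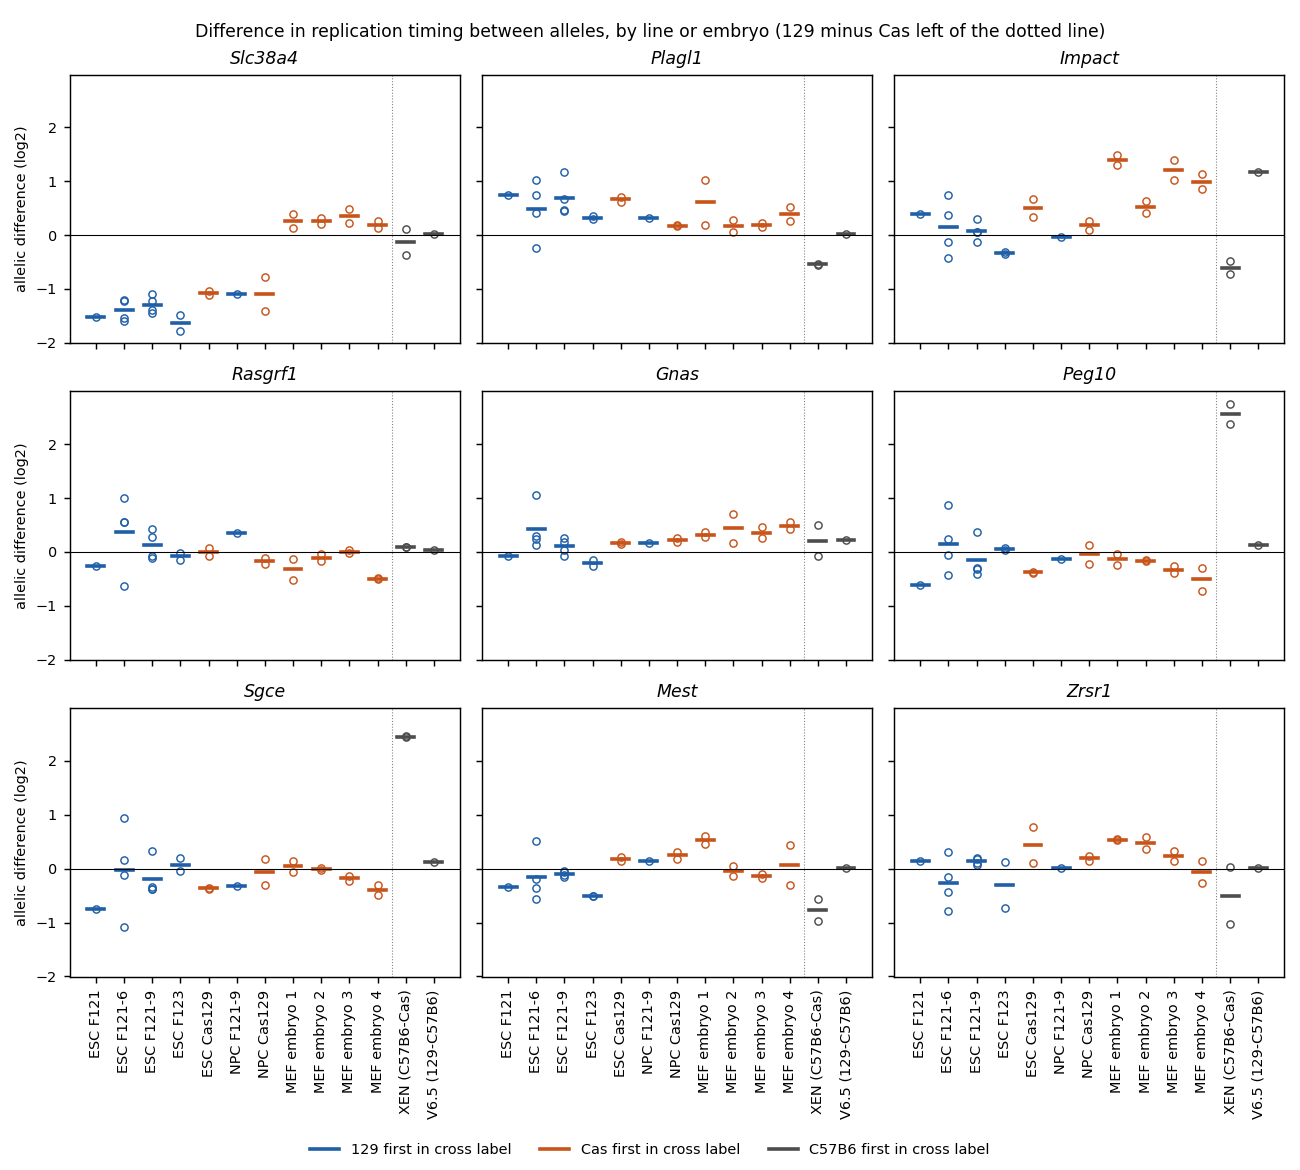
Allelic difference in timing (log2, vertical axis) for 9 genes in each line or embryo; circles are profiles, bars are means, and colours give the strain named first in the cross label. Slc38a4 lies below 0 in all ESC and NPC profiles of 129 and Cas and above 0 in all MEF profiles, and Peg10 and Sgce stand above 2 in XEN alone.

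Nnat, a gene of the developing brain within an intron of Blcap, had no window over its body on chromosome 2 (157560078 to 157562525), and neither had Blcap. The nearest windows ended 110.1 kb to one side and began 37.5 kb to the other. At the nearer one, allelic differences ran from -1.33 to 1.14 over the 5 ESC lines, and at the farther one from -0.30 to 0.17.

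Timing, as the mean of both alleles, differed between cell types at more members than the allelic difference did. From ESCs to NPCs 4 of 9 members were called, against 26.1% of all genes. Mest rose from 1.31 ± 0.18 (SD, n = 5) to 2.54 and 2.67 in the 2 NPC lines (change 1.30, adjusted p = 7.3e-05). Peg10 (1.31) and Sgce (1.37), which share a window, rose as well, with Casd1 (1.74) and Copg2, the neighbour of Mest (1.48). Zrsr1 fell by 1.38 from 2.70 ± 0.37 (SD, n = 5), as did its host Commd1 (by 1.63). Rasgrf1 stood at -0.96 (adjusted p = 0.0012), just under the minimum size, and passed it in 7 of the alternatives.

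From ESCs to MEFs 6 of 9 members were called, against 38.1% of all genes, whose median change was 0.48. Over all genes 7657 were called earlier and 3807 later, and 4140 and 7217 after each profile was centred on its median. Rasgrf1 fell by 1.28 to -0.31 ± 0.15 (SD, n = 4), the lowest timing of any member in MEFs, Zrsr1 by 1.20, Gnas by 1.13 and Impact by 1.04. After that centring, which moved the median over genes to -0.17, these 4 stood at -1.92, -1.84, -1.78 and -1.68. Mest (1.19) and Slc38a4 (1.02) were called as earlier, but after median centring they stood at 0.55 and 0.37 and were not called. The Slc38a4 call was also lost without F121 (0.99), F123 (0.85) or embryo 4 (0.97), with female labels alone (0.83), with the window of the gene start (0.91) and in fits to single profiles with the replicate number (0.92) or the line (0.97) as a block. That of Impact was lost with female labels alone (-0.99) and without F121-6 (-0.96), embryo 1 (-0.99) or embryos 1 and 3 (-0.90). In order of timing within ESCs, Zrsr1 (2.70) and Impact (1.99) were earliest and Sgce (0.94), Rasgrf1 (0.97), Gnas (0.98) and Peg10 (1.04) latest, and the ranges of the last 4 over lines overlapped.

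Other imprinted genes, listed for comparison, had 57 measured members. Many lie in shared clusters, such as Magel2 and Mkrn3, and some share a window, as Igf2 and Ins2 do. The 57 are therefore not independent, and the counts below can hold the same domain several times. In ESCs 14 of 57 were called (19.7% of all genes), 4 higher and 10 lower on 129, with Slc22a3 (-1.93) and Dcn (-1.22) as the largest. The median size over the list was 0.26, against 0.20 over all genes and 0.18 over the 9 members. In MEFs 19 of 57 were called (9.71% of all genes), 11 higher and 8 lower, with Magel2 (2.17) and Mkrn3 (2.15) as the largest, and the median size was 0.34, against 0.17 over all genes and 0.29 over the members. In NPCs 1 of 57 was called (3.73% of all genes), Htr2a (0.54).

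Genes elsewhere in the genome whose allelic difference ran most like that of a called member were found by Pearson's r over the 11 lines and embryos, as a description. For Slc38a4 they were Rfxap (0.97) and Vta1 (0.97), and 203 of 18513 genes compared reached 0.9. For Plagl1 they were Cox8b (0.94) and Nlrp6 (0.92), with 5 genes at 0.9, and for Impact Gm41844 (0.93) and Mbl2 (0.92), with 7. The points share libraries and cell types.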

How the data were processed

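The authors deposited 1 log ratio of early to late signal for each allele and 50 kb window, per the file headers, and it is treated here as log2. The submitters' processing notes name Bowtie2, SAMtools, bedtools and mm10. The base of the logarithm, the way reads were given to alleles, scaling and smoothing are not given in the sources used here. Each autosomal gene (RefSeq, GRCm38.p6; protein-coding, lncRNA or antisense) took the mean of the windows that overlap its body. Profiles were averaged per line or embryo and tested in R 4.3.3 with the package limma 3.58.1 (two-sided tests, Benjamini-Hochberg over 30127 genes), with 1 spread shared by ESCs, NPCs and MEFs. NPC lines were not paired with their parent ESC lines, and a fit with line as a block was run as an alternative. P-values measure the spread between these lines and embryos, except in the feeder comparison. Strain and parental components came from a fit of cell type by cross on 2i profiles. The feeder comparison took 8 profiles (F121-6, F121-9) as units and had line as its covariate, so its p-values rest mainly on repeat profiles. Stretches join called windows across up to 2 uncalled or missing ones. The script was tested on simulated data. Alternatives covered scaling, the gene summary, left-out lines, sex labels, blocks and media. Named genes were the members, their neighbours, the called or 2 largest of the imprinted list, and the 2 genes over 2 Mb away most like each called member. Members and lists were chosen with earlier results of these data known. All per-sample columns were used, and the X and Y were left out of the tests.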

Additional observations from a re-analysis of the deposited data

Results flagged for a closer look

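The allelic difference of Slc38a4 changed by 1.64 between ESCs and MEFs, and that of Impact by 0.87, each by a test of the change itself. Over 36 groups of lines or embryos, 1 held a value far from the rest: the timing of Plagl1 in embryo 1 was 2.67, against 2.37 to 2.41 in the other embryos. By chance about 1 in 20 such groups would hold one.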

How the results depend on the processing

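Over 2259 member values under alternatives, 2227 kept their call or stayed uncalled, 25 lost a call, 7 gained one and 0 called values reversed. Uncalled values changed sign in 63 cases, and these are counted among the 2227. Of 251 counts over all genes, 201 stayed within 1.5 times. Single windows (43941 features) gave 11057 ESC, 2068 NPC and 5654 MEF allelic calls (5949, 1125 and 2926 as reported), 11308 ESC and 1816 NPC strain calls (6128 and 873), 94 NPC parental calls (3), 7063 NPC and 12023 MEF changes of the allelic difference (3703 and 6696), 14273 NPC and 19341 MEF timing changes (7878 and 11464) and 2530 feeder timing calls (1367). No minimum size gave 10618 ESC allelic calls. Female labels alone gave 719 NPC allelic, 1662 MEF allelic, 0 NPC parental and 266 NPC strain calls and 4187 MEF changes. Without embryos 1 and 3 these were 604, 1334, 1, 243 and 4339. Cas129 ESCs alone gave 2473 MEF changes. NPC parental calls were 0 with quantile normalization, 14 with the gene start window, 9 with the median window and 25 with both media.

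The replicate numbers did not pair the samples: same-numbered profiles correlated between -0.0447 and 0.0499 in their allelic deviations and between -0.279 and 0.2104 in timing, over 55 pairs of groups. The replicate block gave 657 NPC allelic, 76 ESC parental and 5 NPC parental calls, and the line as a random block 691, 34 and 0. No member was among these parental calls. With 1 line or embryo left out, NPC allelic calls ranged from 213 to 1653, NPC parental from 0 to 35, NPC strain from 498 to 1642 and NPC changes from 1430 to 4363. With 1 replicate left out, feeder calls ranged from 0 to 75 for the allelic change and from 90 to 663 for timing. Leaving out Cas129 ESCs, or an NPC line, gives no value for the components that need it. The cause of these shifts was not tested. Single windows are also more features (43941) than genes (30127), so their counts cannot be set directly against those of genes. Where an arm was left with 1 line, that line was assumed to vary like the other groups. Read depth is unknown, so no counting error can be given.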
